A study of Mus musculus with 6 samples.

Results

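The endothelin family consists of the receptors Ednra and Ednrb, the peptide precursors Edn1, Edn2 and Edn3, and the converting enzymes Ece1 and Ece2. Its transcripts were followed in the adrenal gland, taken whole from males aged 3 months that carried the Per2Brdm1 mutation and lacked Cry1 (Per2Brdm1/Cry1-/-, C57BL6x129Sv background), which the labels call circadian clock-deficient. All mice had been entrained to light and dark before release into constant darkness, and 3 arrays came from glands taken 54 h after lights off and 3 from glands taken 46 h after lights off. The arrays of each time are called replicates 1, B and C, and whether an array held RNA of 1 animal or of a pool is not given in the labels. Every group carries both mutations, and no wild-type gland was analysed here. The 7 genes were chosen by name, and the family was chosen because Ednrb differed between the times in these same arrays, so the changes below are a description and not a test. Of the 7 genes, 6 were read by 14 probe sets that name exactly 1 gene, out of 18163 genes named on the array. Ednra was not analysed here.

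Endothelins are short vasoactive peptides cut from longer precursors by furin-like proteases and then by the membrane metalloproteases encoded by Ece1 and Ece2. The receptor encoded by Ednra prefers the products of Edn1 and Edn2, whereas the one encoded by Ednrb binds all endothelins, and both couple to Gq proteins and calcium release. In the adrenal gland endothelins act on vessels and stimulate steroid secretion, above all of aldosterone by the zona glomerulosa, and Edn3 with Ednrb is also known for its role in neural crest development.

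Promoter sequences are shown for the members with the highest differences between the times, Ednrb and Edn1, and for the one family promoter with a clock E-box. Each runs from 250 bases before to 50 bases after an annotated start, from RefSeq on build GRCm38.p6. Capitals mark matches to the motifs searched on both strands, namely the clock E-box CACGTG, the AP-1 motif TGANTCA and the cAMP response element core TGACG.
Ednrb, chr14:103843652-103843951, minus strand: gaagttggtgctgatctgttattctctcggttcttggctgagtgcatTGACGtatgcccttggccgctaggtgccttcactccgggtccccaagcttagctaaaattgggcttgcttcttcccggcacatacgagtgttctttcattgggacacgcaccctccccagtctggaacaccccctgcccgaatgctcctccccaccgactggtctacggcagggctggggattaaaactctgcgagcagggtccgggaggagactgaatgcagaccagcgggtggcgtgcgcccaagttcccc
Edn1, chr13:42301226-42301525, plus strand: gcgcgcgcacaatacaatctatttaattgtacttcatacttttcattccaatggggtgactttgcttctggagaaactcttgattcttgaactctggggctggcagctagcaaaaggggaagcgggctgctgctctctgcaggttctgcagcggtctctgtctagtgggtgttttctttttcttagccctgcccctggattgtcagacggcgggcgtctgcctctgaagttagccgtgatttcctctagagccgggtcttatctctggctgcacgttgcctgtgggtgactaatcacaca
Ece1, chr4:137913308-137913607, plus strand: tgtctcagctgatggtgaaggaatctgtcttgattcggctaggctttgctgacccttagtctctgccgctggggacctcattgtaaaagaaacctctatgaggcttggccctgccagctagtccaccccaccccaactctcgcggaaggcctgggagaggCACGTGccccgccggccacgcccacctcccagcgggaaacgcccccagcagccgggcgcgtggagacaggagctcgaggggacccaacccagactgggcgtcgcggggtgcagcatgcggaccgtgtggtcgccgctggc
The Ednrb window held 1 cAMP element core, beginning at position -203 from the start, and no other match. This window lies inside the span of the gene, which on the minus strand begins at chr14:103844508, and no window there was searched. The Edn1 window held none of the 3 motifs. Ece1 has 4 annotated starts, and 1 of these windows held the E-box, at position -90. Among the 10 windows of the 7 genes, 1 held an E-box, 1 a cAMP element core and 0 the AP-1 motif. Of all 32851 mouse promoter windows of this length, 7.15% held the E-box, 20.8% the cAMP element core and 7.81% the AP-1 motif. These matches are letters in a window and say nothing about binding.

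The values are deposited intensities per probe set and array in arbitrary units, and changes are differences of log2(intensity + 16), 54 h minus 46 h, with standard errors and 95% confidence intervals from a limma fit over all probe sets. Array medians lay between 204 and 217 units and the highest intensity was 17879. The gland's own markers were bright: Star, which delivers cholesterol to mitochondria, read 16426 to 17202 units at 54 h and 17032 to 17813 units at 46 h. The medullary enzyme gene Th, for catecholamine synthesis, read 8496 to 9298 units at 54 h and 8955 to 9262 units at 46 h. Where 3 values are given for a time, they are those of replicates 1, B and C in that order. Brightness depends on the probes as well as on the RNA, so levels of different probe sets are not ranked as amounts of RNA.

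Ednrb, at chr14:103814615-103844508 on GRCm38.p6, was read by 3 probe sets that did not change alike. The brightest, 1437347_at, stood at 2915, 2993 and 2963 units at 54 h, against 1779.6, 1866 and 1954 units at 46 h. The groups did not overlap, and the 54 h arrays lay close together. The means were 2957 ± 39.7 units at 54 h and 1866 ± 87.2 units at 46 h (SD, n = 3 each), which is 1.58-fold higher at 54 h. The log2 change was 0.66 ± 0.07 SE (95% interval 0.51 to 0.81). This probe set was chosen on this contrast and stood at the 92.3th percentile of brightness, for which the next rank was not matched. Its spread within the times was small, at the 5.59th percentile of the 26961 probe sets above the filter on low values. A rise of this size or more was measured in 106 of those probe sets, of which 11 passed limma at an adjusted p of 0.05.

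The second Ednrb probe set, 1426314_at, read 595, 637 and 577 units at 54 h, against 532, 491 and 564 units at 46 h. Its groups did not overlap either, but 54 h replicate C lay just above 46 h replicate C. The log2 change was 0.18 ± 0.10 SE (95% interval -0.04 to 0.41). The third, 1423594_a_at, read 457, 482 and 372 units at 54 h, against 437, 439 and 483 units at 46 h, and its groups overlapped. Its log2 change was -0.06 ± 0.12 SE (95% interval -0.33 to 0.22), and 0.05 without 54 h replicate C. The upper bounds of both dimmer probe sets, 0.41 and 0.22, lay under the lower bound of the brightest, 0.51. The family was chosen on the change of the brightest, and all 3 share the same arrays, so this is a description and not a test. Averaged over the 3 probe sets, Ednrb had a log2 change of 0.26. An ending in _a_at marks a probe set for several transcripts of one gene. Where each probe set lies on the Ednrb transcripts is not given in the tables used here, and whether transcript forms account for the disagreement was not tested.

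**Figure D1:**
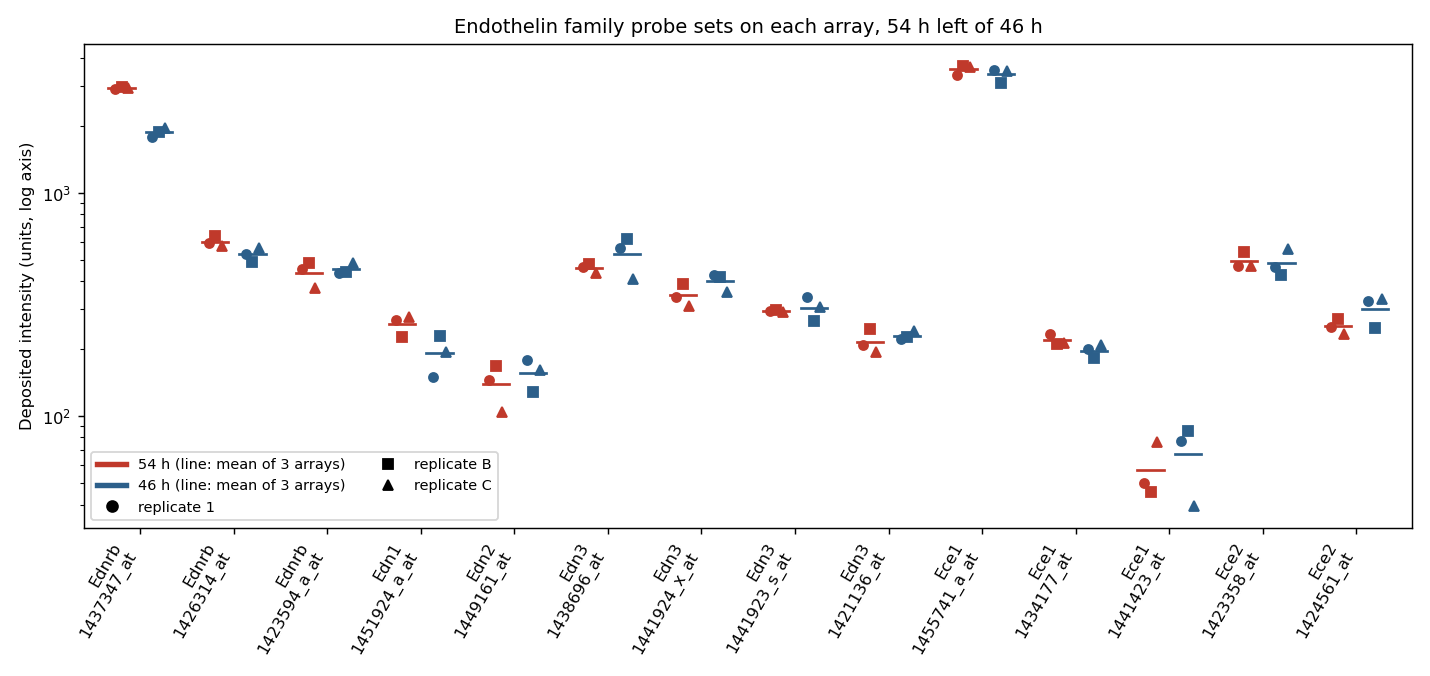
Deposited intensity (log axis) of the 14 probe sets of the endothelin family on each array, with the 54 h arrays left of the 46 h arrays, symbols for replicates and lines for means of 3 arrays. The brightest Ednrb probe set stood at 2915 to 2993 units at 54 h and 1779.6 to 1954 units at 46 h, and most other probe sets overlapped between the times.

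Among the ligands, Edn1, the precursor of endothelin-1, at chr13:42301476-42307990, had the highest change and a wide spread. Its probe set read 269, 226 and 276 units at 54 h, against 149, 229 and 192 units at 46 h. The groups overlapped, since 54 h replicate B lay just under 46 h replicate B. The means were 257 ± 26.9 units at 54 h and 190.2 ± 39.8 units at 46 h (SD, n = 3 each). The log2 change was 0.42 ± 0.16 SE (95% interval 0.06 to 0.78). Without 46 h replicate 1, its lowest array, the change was 0.27. Edn1 and the brightest Ednrb probe set were the 2 members with an interval that left out 0.

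Edn2, at chr4:120161206-120167360, read 145, 167 and 104 units at 54 h, against 178, 128 and 160.3 units at 46 h. These values lay near the filter on low values, at the 41.1th percentile of brightness, and the groups overlapped widely. The log2 change was -0.16 ± 0.18 SE (95% interval -0.57 to 0.25), and 0.01 without 54 h replicate C.

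Edn3, at chr2:174760619-174784042, encodes the ligand best known for acting through Ednrb in neural crest cells. It was read by 4 probe sets, all with lower means at 54 h, and the groups of each overlapped. The brightest, 1438696_at, read 463, 479 and 437 units at 54 h, against 563, 619 and 412 units at 46 h. Its log2 change was -0.18 ± 0.15 SE (95% interval -0.52 to 0.15), and it moved to -0.35 without 46 h replicate C and -0.07 without 46 h replicate B. The next, 1441924_x_at, read 341, 389.95 and 311 units at 54 h, against 426, 421 and 359 units at 46 h, with a log2 change of -0.20 ± 0.13 SE. The 54 h values of 1441923_s_at were nearly equal, at 291 to 298 units, against 266 to 340 units at 46 h, and its log2 change of -0.04 ± 0.12 SE became 0.04 without 46 h replicate 1. For 1421136_at the values were 194 to 244 units at 54 h and 220.3 to 239 units at 46 h, with a log2 change of -0.09 ± 0.12 SE. Probe sets ending in _s_at or _x_at can share sequence with other transcripts, so their readings may not be of Edn3 alone.

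The converting enzyme gene Ece1, at chr4:137862237-137965229, had the brightest probe set of the family, 1455741_a_at. It read 3362, 3700.4 and 3655 units at 54 h, against 3552, 3099 and 3516 units at 46 h. The groups overlapped, and the log2 change was 0.08 ± 0.07 SE (95% interval -0.08 to 0.24). A dimmer probe set, 1434177_at, read 233, 210.0 and 213 units at 54 h, against 199, 181 and 209 units at 46 h. Its groups were separated by a narrow gap between 54 h replicate B and 46 h replicate C, and the log2 change was 0.14 ± 0.12 SE (95% interval -0.12 to 0.41). The third, 1441423_at, lay under the filter at 45.5 to 76.2 units at 54 h and 39.6 to 85.9 units at 46 h, and had a log2 change of -0.16 ± 0.26 SE in a fit with no filter.

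Ece2, at chr16:20629851-20645915, encodes a related enzyme that works at acid pH. Its probe set 1423358_at read 469.8, 540.1 and 471 units at 54 h, against 465, 426 and 557 units at 46 h, and the groups overlapped. The log2 change was 0.04 ± 0.13 SE (95% interval -0.25 to 0.32), and -0.05 without 46 h replicate B and -0.03 without 54 h replicate B. The other, 1424561_at, read 249.7, 272 and 233 units at 54 h, against 327, 247 and 332 units at 46 h, a log2 change of -0.24 ± 0.14 SE (95% interval -0.55 to 0.07). Here 46 h replicate B fell among the 54 h arrays, and without it the change was -0.37. RefSeq lists a joint transcript with the neighbouring gene Eef1akmt4 under Ece2, so which transcript each probe set reads is uncertain.

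**Figure D2:**
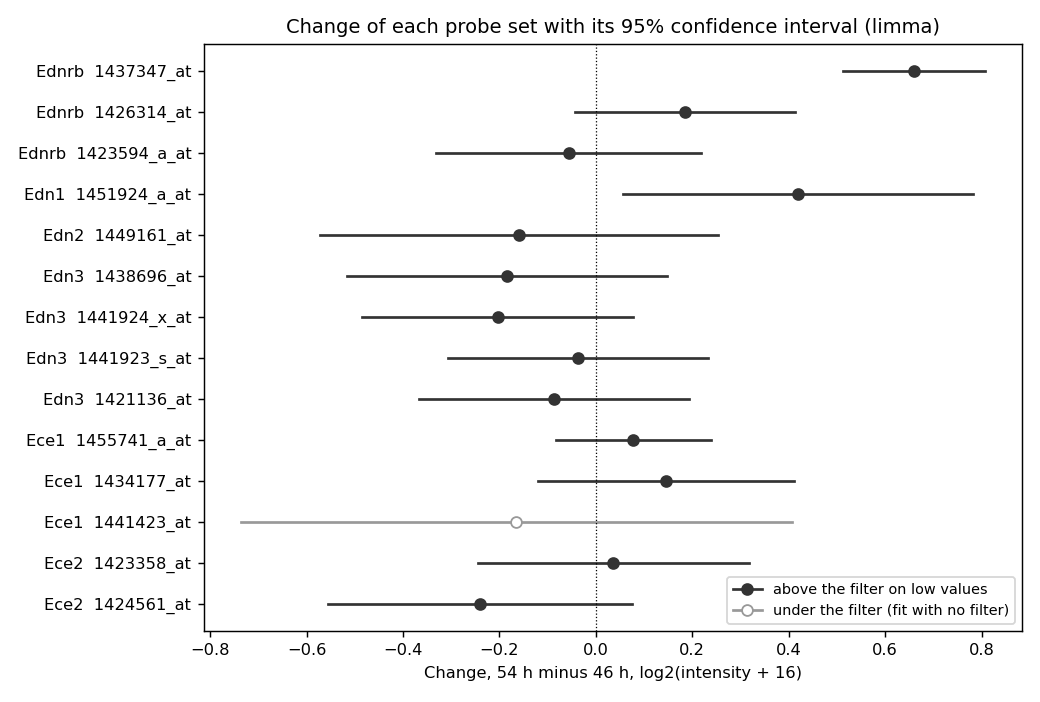
Change of each probe set between the times (54 h minus 46 h, log2 scale) with its 95% confidence interval from limma, open and grey for the probe set under the filter. The brightest Ednrb probe set, at 0.66, and Edn1, at 0.42, are the 2 whose intervals lie wholly above 0.

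Of the 14 probe sets 13 were above the filter, 6 with higher and 7 with lower means at 54 h, and their median log2 change was -0.04, against -0.02 over all probe sets above the filter. In limma 1 of the 13, the brightest of Ednrb, passed at an adjusted p of 0.05, where 0.115% of all 26961 passed, 0.0593% higher and 0.0556% lower at 54 h. It did not pass without 46 h replicate 1 or without 54 h replicate C, where its log2 changes were 0.63 and 0.66. With no adjustment of p, 2 of the 13 were under 0.05, this one and Edn1, both higher, where 10.1% of all passed, 4.34% higher and 5.75% lower. Values of the times did not overlap for 3 of the 13, all higher at 54 h, where 15.5% of all were separated, 6.48% with 54 h higher and 9.05% with 54 h lower. Since Ednrb was chosen on this contrast, nothing is read from these counts. The changes of the 12 other probe sets above the filter ran from -0.24 to 0.42.

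The 54 h arrays kept a like order for many of the family's probe sets. At 54 h, replicate B was the highest array for 11 of the 13 probe sets, against 42.2% of all probe sets, and replicate C the lowest for 8 of the 13, against 30.1% of all. At 46 h the shares lay closer to those of all probe sets. There replicate C was the highest for 7 of the 13 (53.8%), against 52.3% of all. Replicate B was the lowest for 7 (53.8%), against 44.2% of all. Probe sets of one gene share its RNA, so these are not independent counts. They also ignore the size of the gaps, which could be small. For Edn3 1441923_s_at, 54 h replicate B read 297.6 units and 54 h replicate 1 read 296.5 units. Replicate B was instead the lowest 54 h array for 2 probe sets, that of Edn1 and Ece1 1434177_at. Replicate 1 was the lowest for 3, the brightest probe sets of Ednrb, Ece1 and Ece2.

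**Figure D3:**
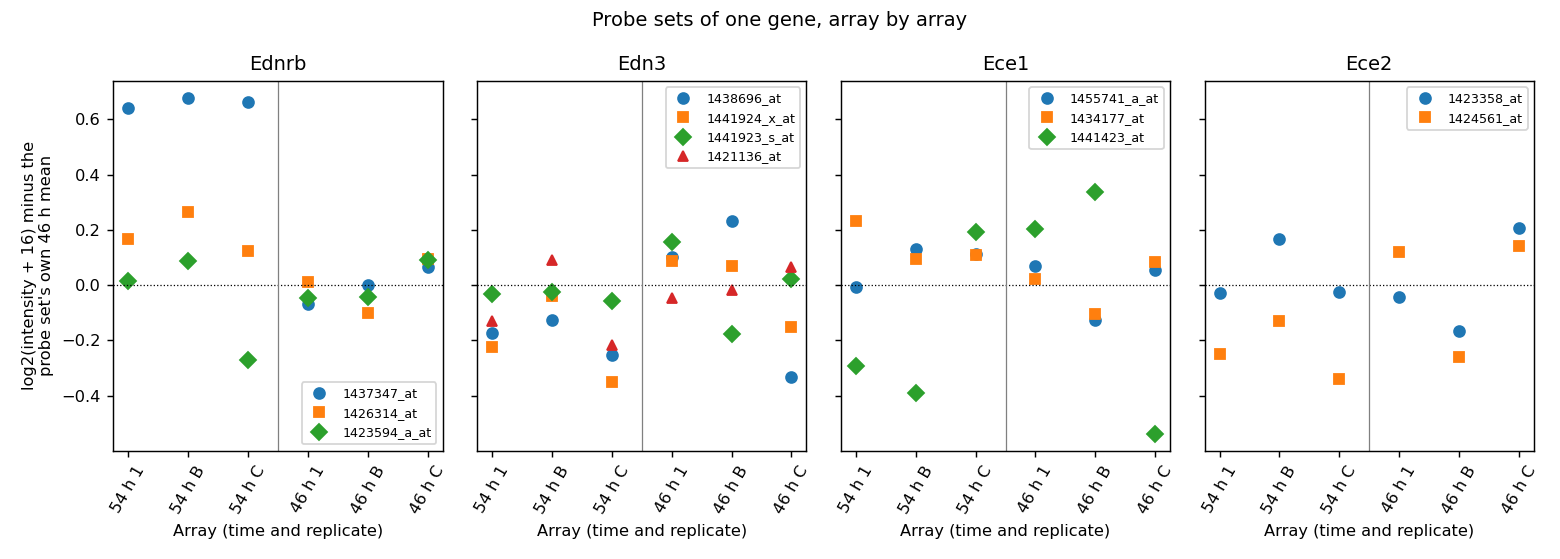
Probe sets of Ednrb, Edn3, Ece1 and Ece2 on each array, as log2(intensity + 16) minus the probe set's own 46 h mean, with the 54 h arrays left of the line. The 3 Ednrb probe sets separate at 54 h, where the brightest lies 0.64 to 0.68 above its 46 h mean and the dimmest -0.27 to 0.09.

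The 5 genes with the pattern over the 6 arrays closest to that of the brightest Ednrb probe set were picked by the mean absolute difference between log2 values centred on each probe set's own mean. They were 4932437C15Rik, with a difference of 0.06, Ociad1, an endosomal protein gene, with 0.06, and the desmosomal plaque gene Dsp with 0.06. The 14-3-3 gene Ywhaz and the MAP kinase phosphatase gene Dusp1 followed, both with 0.07. Ywhaz read 1567, 1729 and 1631 units at 54 h, against 1079, 944 and 1098 units at 46 h. Their log2 changes lay between 0.57 and 0.68, which follows from how they were picked.

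Genes around the receptors did not pass the test. Of 43 pathway genes tested, each read from its brightest probe set, 0 passed limma at an adjusted p of 0.05 in either direction, where 0.109% of 13780 genes passed, 0.0581% higher and 0.0508% lower. With no adjustment of p, 1 was higher and 2 were lower at the 0.05 level, where 10.3% of all genes passed that level, 4.11% higher and 6.2% lower. The median log2 change was -0.02 for the pathway genes and -0.02 for all genes.

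Among 9 proteases that process or break down endothelins, 4 had higher and 5 lower means at 54 h. Pcsk5, a furin-like convertase gene, had the smallest p, at 6749 ± 478 units at 54 h and 5644 ± 400 units at 46 h (SD, n = 3 each). Its difference on the log2 scale was 0.26 ± 0.07 SE, with a limma adjusted p of 0.250. Furin had a log2 change of 0.13 ± 0.06 SE. Mme, the gene of neprilysin, which degrades endothelins, had 0.46 ± 0.22 SE.

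Among 17 genes of receptor coupling, 5 had higher and 12 lower means at 54 h. Prkcd, a protein kinase C gene, differed by -0.26 ± 0.08 SE on the log2 scale, with a limma adjusted p of 0.328, the inositol trisphosphate receptor gene Itpr3 had -0.22 ± 0.10 SE, and Rgs5, a regulator of G proteins in pericytes, had -0.19 ± 0.09 SE. The bright genes Gnai2 and Plcb1 had 0.03 ± 0.05 SE and 0.04 ± 0.05 SE.

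Among 17 genes of other vasoactive systems, 8 had higher and 9 lower means at 54 h. Gucy1b1, the beta subunit of the nitric oxide receptor, differed by -0.28 ± 0.10 SE on the log2 scale, with a limma adjusted p of 0.398, while its partner Gucy1a1 had 0.18 ± 0.12 SE. The angiotensin receptor gene Agtr1a, which drives aldosterone secretion, had 0.05 ± 0.04 SE, the natriuretic peptide receptor gene Npr1 had 0.15 ± 0.08 SE, and the prostacyclin synthase gene Ptgis had 0.00 ± 0.05 SE.

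Markers of the cells that may carry endothelin receptors were compared beside Ednrb. In whole glands, fewer cells of a type and less RNA per cell cannot be told apart. Of 12 endothelial markers 0 passed limma at an adjusted p of 0.05, 5 with higher and 7 with lower means at 54 h. Their median log2 change was -0.03, and 2 were lower at an unadjusted p of 0.05, where 6.2% of all genes were. Their summed intensity was 20323 to 21141 units at 54 h and 20709.8 to 23665 units at 46 h. The vascular growth factor receptor gene Kdr had -0.23 ± 0.05 SE (limma adjusted p = 0.204) and Egfl7 -0.29 ± 0.11 SE, while Cldn5 had 0.19 ± 0.11 SE.

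Of 8 smooth muscle and pericyte markers 0 passed limma, with a median of 0.04 and sums over the 9 measured of 9468 to 10131 units at 54 h and 8907 to 9576 units at 46 h. The actin gene Acta2 had 0.18 ± 0.06 SE (limma adjusted p = 0.327). Of 6 Schwann and glial markers 0 passed limma, with a median of -0.01 and sums over the 8 measured of 2275 to 2287 units at 54 h and 2174 to 2397 units at 46 h. Sox10, a glial and neural crest factor, had -0.05 ± 0.12 SE. Of 4 zona glomerulosa markers 0 passed limma. Cyp11b2, the aldosterone synthase gene, had -0.07 ± 0.07 SE and Vsnl1 0.30 ± 0.06 SE (limma adjusted p = 0.139).

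Most liver markers were higher at 54 h. Of 9 tested, 8 had higher means and 1, Tat, a lower mean at 54 h, and the median log2 change was 0.98. Tat had -0.11 ± 0.16 SE. In limma 2 of the 9 passed as higher at an adjusted p of 0.05, Serpina1b and Cyp3a11, where 0.0581% of 13780 genes did. The summed intensity over the 10 liver markers measured was 8342, 12444 and 10138 units at 54 h, against 6085, 3910.1 and 5726 units at 46 h. On the same arrays the brightest Ednrb probe set read 2915, 2993 and 2963 units at 54 h, against 1779.6, 1866 and 1954 units at 46 h. Of 4 erythroid markers tested, 3 had higher and 1 lower means at 54 h, with a median log2 change of 0.31. Of these the globin gene Hbb-b2 passed limma as higher, with 1.04 ± 0.12 SE, while the other globin gene, Hba-a1, had -0.30 ± 0.30 SE, the heme synthesis gene Alas2 0.54 ± 0.17 SE and the anion exchanger gene Slc4a1 0.09 ± 0.12 SE. Hba-a1 read 591, 471 and 892 units at 54 h, against 1051, 932 and 475 units at 46 h, and its groups overlapped. The probe sets of Serpina1b and Hbb-b2 end in _x_at, so their readings may not be of those genes alone. In limma 0 of 6 adipose, 8 macrophage, 8 capsule and stroma, 7 chromaffin and 8 steroidogenic cortex markers tested passed. At an unadjusted p of 0.05 these 5 lists held 3 higher adipose genes and 4 macrophage, 1 stromal and 1 chromaffin gene that were lower. Of all genes, 4.11% were higher and 6.2% lower at that level. The 3 adipose genes were Cidea with 0.67 ± 0.17 SE, Lep with 0.59 ± 0.19 SE and Ucp1 with 0.56 ± 0.22 SE. Fabp4 and Adipoq, the brightest adipose genes, had -0.06 ± 0.07 SE and -0.11 ± 0.11 SE. The adipose median was 0.33, with 4 genes higher and 2 lower at 54 h. The macrophage median was -0.14, with 3 higher and 5 lower. The capsule and stroma median was -0.12, with 3 higher and 5 lower. Chromaffin markers had a median of -0.08, with 0 higher and 7 lower. Steroidogenic cortex markers had a median of -0.05, with 0 higher and 8 lower. The median of all genes was -0.02, with 5968 higher and 7812 lower. Summed macrophage intensity was 26058 to 26401 units at 54 h and 28517 to 29419.5 units at 46 h. Cd74, the brightest macrophage marker, weighs most in this sum, with means of 9191 units at 54 h and 10098 units at 46 h. Summed adipose intensity was 27543 to 34857 units at 54 h and 26004 to 32257 units at 46 h. Summed erythroid intensity was 2020.3 to 2457 units at 54 h and 1497 to 1942 units at 46 h. The sums of the times did not overlap for the macrophage, liver and erythroid lists or for the peptide processing list, and overlapped for the adipose list. Without 46 h replicate 1, or without 54 h replicate C, 0 genes of these lists passed limma at an adjusted p of 0.05, against 3 with all arrays. The part of liver, blood or fat in the Ednrb and Edn1 values was not tested.

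**Figure D4:**
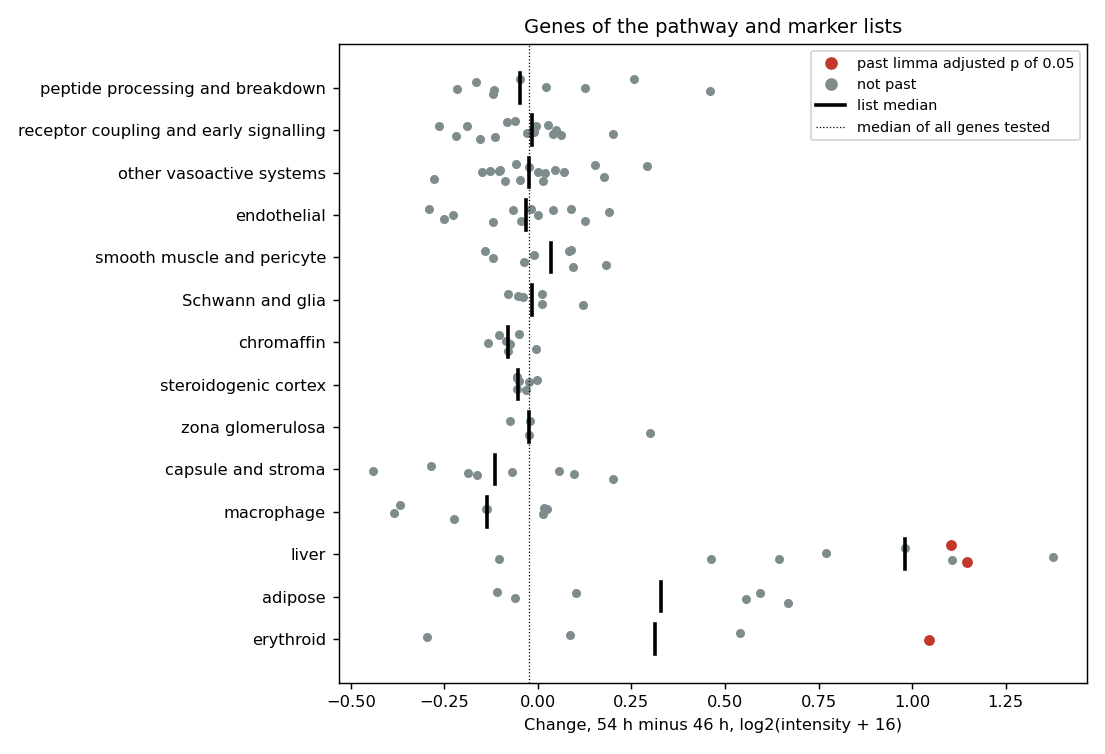
Log2 change (54 h minus 46 h) of each tested gene of the pathway and marker lists, with a bar at each list's median and a dotted line at the median of all genes. The pathway, endothelial, smooth muscle and glial lists lie around 0, and the genes past limma at an adjusted p of 0.05 are Serpina1b, Cyp3a11 and Hbb-b2.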

How the data were processed

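Per the labels, total RNA of whole adrenal glands was extracted with a column kit and labelled with biotin. The authors deposited linear intensities, 1 for each probe set on each array; how probes were summarised, background-corrected and normalized is not given in the sources used here. Array medians of log2 values differed by 0.0728, so no further normalization was applied. Of 45001 probe sets, 64 controls, 1 without values and 1 with a damaged value were left out. Names came from the platform annotation (34848 probe sets with 1 gene) and RefSeq on GRCm38.p6, where 34644 had their gene ID and 0 symbols changed.

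Values were transformed as log2(intensity + 16). Probe sets with a mean log2 value above the 40th percentile (26961) were fitted in limma 3.58.1 under R 4.3.3 (lmFit, eBayes with an intensity trend, two-sided, Benjamini-Hochberg over all). The fit was tested on simulated data with independent noise for each probe set and array. The simulation held no deviations shared by the probe sets of an array, so it cannot show how calls fare under them. With 3 arrays a time, the smallest exact permutation p is 0.1. Nothing in the labels says that arrays came from separate animals, so p-values cover only the possibly technical spread between arrays, and the number of arrays limits the precision. Tables were made in Python 3.11.15 and figures in matplotlib 3.10.9. Genes outside the family were named by a rule: in each list those past the threshold, the 3 with the smallest p and the 2 brightest; some of these are given only within their list's counts. The members, lists and tests were chosen with earlier results of these data known. Alternatives covered normalization, filter, offset, variance model, array weights, replicate block, each array left out, and the mean over a gene's probe sets.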

Additional observations from a re-analysis of the deposited data

How the results depend on the processing

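The log2 change of the brightest Ednrb probe set was 0.66 and lay between 0.63 and 0.71 under all 16 alternatives; with each array left out in turn it ran from 0.63 to 0.69. It was past the limma threshold of an adjusted p of 0.05 in 13 of the 16, and not without an intensity trend, without 46 h replicate 1 or without 54 h replicate C. Since the family was chosen on this contrast in the same arrays, these passes describe the processing and are not a test of the change. The 12 other probe sets of the family above the filter had 186 values under these alternatives, of which 5 had the opposite sign, all with 1 array left out, and 3 moved by more than the spread between replicates, all with array weights (Edn1 0.67, Edn2 -0.50 and Edn3 1441924_x_at -0.36). Of these 186 values 3 passed limma, again with array weights (Edn1, Edn3 1441924_x_at and Ece2 1424561_at). Averaging its probe sets moved Ednrb to 0.26. The count of 31 probe sets past the threshold became 47 with quantile normalization, 50 with centred medians, 48 with a filter at the 60th percentile, 3 without a trend, 61 when the variance prior was robust and 3466 with array weights, and 2 to 65 with each array left out. The count of 3 list genes became 0 without a trend, 31 with array weights, and 0 to 4 with each array left out. The cause of these differences was not tested. Deviations of same-lettered arrays from the means of their times correlated at -0.06, -0.41 and -0.49 across probe sets. Those of differently lettered arrays correlated at -0.04 to 0.46. With 3 arrays a time these values are tied to each other, so they cannot decide whether the letters pair the arrays. With the replicate block 45 probe sets passed, the Ednrb change was 0.66, and 3 list genes passed.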
